A study of Mus musculus with 12 samples.

Results

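Stem cells of the intestinal crypt are recognised by a set of marker genes, and 10 of them are described here in young and old mice. They were chosen by name, as stem and reserve stem cell markers apart from the usual Wnt target genes. The choice was made with earlier results of these data known. All 10 were found among the 54232 genes of the count table and passed the filter on low counts, which left 13368 genes for testing. Gene expression had been measured by 3′ RNA sequencing in intestinal stem cells (ISCs) sorted from the small intestine, with 1 female mouse per library, 4 groups and 3 libraries in each group. SM6 young and SM6 old were wild-type C57/Bl6 mice aged 2 and 22 months, whose ISCs were sorted with surface markers only. Lgr5-GFP young and Lgr5-GFP old were mice of the same ages that carried Lgr5-EGFP-IRES-CreERT (so in the labels, and Lgr5-EGFP-IRES-CreERT2 in the study's methods), a fluorescent reporter placed in the Lgr5 gene, which is known to be switched on in only some of the crypts. The sorting protocol in the labels names the surface markers for all libraries, whereas a legend in the study's supplement has the reporter mice sorted by fluorescence. Strain and isolation therefore change together and their effects cannot be told apart.

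Cells at the base of the crypt divide daily and supply the whole epithelium, and they are held in the stem cell state by Wnt, Notch, BMP and epidermal growth factor signals. A second set of cells just above the base has been proposed as a reserve that is called upon after injury, and Hopx, Lrig1 and Msi1 have been used to mark it, although crypt base cells are known to express these genes as well. The 10 markers span secreted proteins (Olfm4, Smoc2), proteins of the cell surface (Rgmb, Prom1, Lrig1), regulators of transcription and translation (Hopx, Sox9, Msi1) and proteins of the cell cycle (Cdca7, Cdk6). The division from Wnt targets is not a sharp one, since Sox9 is itself known to respond to Wnt.

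Of the 10 markers, 4 fell with age: Msi1, Sox9, Cdk6 and Olfm4. All 4 were lower in old ISCs in SM6 and on average over both isolations, and none passed the test in Lgr5-GFP alone. The average takes in the same SM6 libraries and is not an independent result. Smoc2, Rgmb, Prom1, Lrig1, Hopx and Cdca7 did not pass the test in any age comparison. Prom1 had an average change close to 0.

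Between 970472 and 3815425 counts were obtained per library (median 1424340). Levels are given as CPM, the counts of a gene scaled to a common library total after TMM normalisation, which evens out the composition of libraries. Defensin transcripts, made by Paneth cells, took between 1.26% and 23.2% of the counts, and SM6 old replicate 3 (23.1%) and Lgr5-GFP young replicate 1 (23.2%) stood apart from the rest of their groups. No pair of replicates was alike to within counting error. All 8 genes of an ISC list (Lgr5, Ascl2, Axin2, Gkn3, Slc12a2, Igfbp4 and the markers Olfm4 and Smoc2) were detected in every group. Age was tested with the edgeR quasi-likelihood test on all 12 libraries, and a gene is called here at a Benjamini-Hochberg adjusted p under 0.05 over the 13368 genes. In sorted bulk samples, fewer cells of a type and less RNA per cell cannot be told apart.

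Promoters are shown for Olfm4 and Cdk6, the called markers that had an entry among the RefSeq promoters used (7 of the 10 markers had an entry, and Sox9, Msi1 and Smoc2 did not). Each line gives the 250 bases before the RefSeq start on GRCm38.p6, 5′ to 3′, from chr14:80000052-80000301 (+ strand) for Olfm4 and chr5:3343643-3343892 (+ strand) for Cdk6, with the matches to the searched motifs in capitals.
Olfm4: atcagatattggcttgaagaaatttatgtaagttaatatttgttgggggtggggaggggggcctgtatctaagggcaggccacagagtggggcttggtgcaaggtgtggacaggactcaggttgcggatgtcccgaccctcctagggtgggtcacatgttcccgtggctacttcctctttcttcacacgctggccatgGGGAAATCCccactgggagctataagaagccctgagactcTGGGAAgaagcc
Cdk6: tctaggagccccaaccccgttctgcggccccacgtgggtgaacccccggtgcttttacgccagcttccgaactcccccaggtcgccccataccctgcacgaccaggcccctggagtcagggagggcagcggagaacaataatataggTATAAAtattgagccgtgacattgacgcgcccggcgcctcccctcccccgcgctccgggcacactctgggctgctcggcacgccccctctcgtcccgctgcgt

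Both windows lie inside the gene's own span in the GENCODE annotation, which opens upstream of the RefSeq start, and 51 of the 250 bases were exonic for Olfm4 and 57 for Cdk6. The Olfm4 window held TGGGAA, the core bound by the Notch effector RBPJ, with its first base 12 bases before the start, and GGGAAATCC, an NF-kB sequence, at 52 bases. The NF-kB sequence was added to the search after this promoter had been read, and it stood in 0.28% of all 32851 promoter windows of the same length, on either strand. TGGGAA stood in 21.6% of them and among the markers also in Cdca7 and Prom1. The Cdk6 window held TATAAA, the core of the TATA box, at 103 bases before the start, a sequence found in 12.4% of windows and also in Rgmb. The E2F sequences TTTCCCGC and TTTGGCGC stood in 0.895% and 0.417% of windows and, among the markers, in Cdca7 and Hopx respectively. TGANTCA, the AP-1 sequence, was in 6.75% of windows and in Prom1, and CTTTGA, the TCF/LEF core of Wnt target genes, was in 13.8% of windows and in 0 of the 7 markers with an entry. The Cdk6 window was rich in G and C (66.0%, with 22 CpG dinucleotides), the Olfm4 window less so (54.0% and 4), beside medians of 52.4% and 6 over all windows.

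Olfm4 (ENSMUSG00000022026, GRCm38 chromosome 14, 79984081 to 80023139) codes for a secreted glycoprotein that is among the most used markers of crypt base stem cells and is known to depend on Notch signalling. In SM6 young, replicates 1, 2 and 3 held 9320, 11900 and 10960 CPM. In SM6 old they held 5397, 6036 and 6552 CPM. In Lgr5-GFP young the 3 values were 9603, 10970 and 9378 CPM, and in Lgr5-GFP old they were 7564, 7431 and 8885 CPM. Every old library lay below every young library of its own isolation, and the lowest group was SM6 old. The mean level fell from 10730 ± 1308 to 5995 ± 579 CPM in SM6 (SD, n = 3 each), and the means were 9983 ± 860 and 7960 ± 804 CPM in Lgr5-GFP young and old. On the log2 scale Olfm4 changed by -0.84 with age in SM6 (95% interval -1.16 to -0.52, edgeR adjusted p = 0.00342), which is 55.9% of the young level. In Lgr5-GFP the value was -0.33 (edgeR adjusted p = 0.505), and the average over both isolations was -0.58 (SE 0.11, edgeR adjusted p = 0.00306). With library totals left unscaled, the average was -0.57 and no longer passed (edgeR adjusted p = 0.0773). In order of level, SM6 young and Lgr5-GFP young overlapped, and both Lgr5-GFP old and SM6 old stood clear of the group above them.

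Smoc2 (ENSMUSG00000023886, chromosome 17, 14279506 to 14404790) codes for a secreted calcium-binding matrix protein of the ISC signature. Its libraries ran from 267.7 to 328.9 CPM in SM6 young, from 236.2 to 265.0 in SM6 old, from 317.2 to 333.7 in Lgr5-GFP young and from 291.1 to 362.6 in Lgr5-GFP old. The SM6 groups did not overlap, yet the change was small, at -0.20 on the log2 scale (95% interval -0.52 to 0.13, edgeR adjusted p = 0.672), and -0.09 without SM6 young replicate 1. In Lgr5-GFP it was -0.03 (95% interval -0.36 to 0.29, edgeR adjusted p = 0.976).

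**Figure D1:**
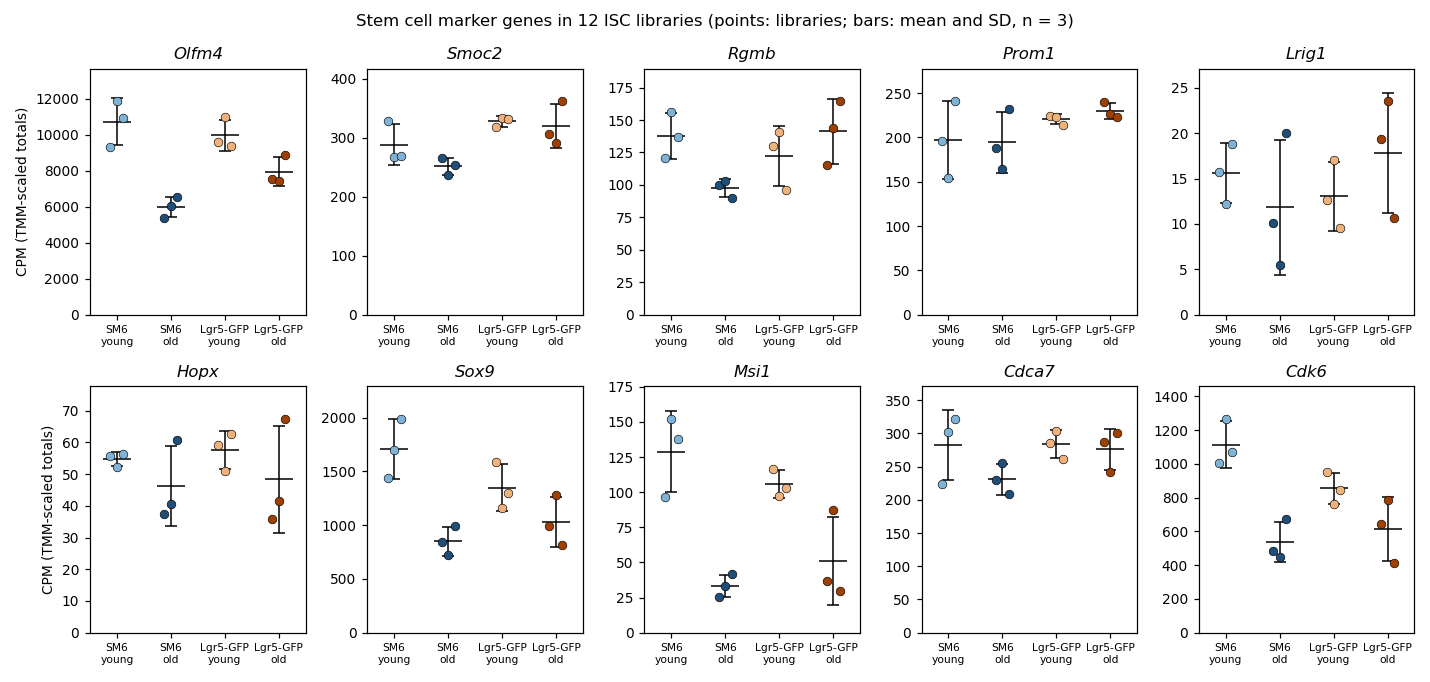
Levels of the 10 markers in each library as CPM values on linear axes that start at 0, with 1 panel per gene, points for libraries, and bars for the mean and SD of 3 libraries per group. Msi1, Sox9, Cdk6 and Olfm4 sit lower in SM6 old than in SM6 young, from 10730 to 5995 CPM on average for Olfm4, whereas the Prom1 groups overlap.

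Among the surface proteins, Rgmb (ENSMUSG00000048027, chromosome 17, 15803188 to 15831039), a co-receptor for bone morphogenetic proteins, had values of opposite sign in the isolations, and neither passed the test. Its 3 values were 120.8, 156.3 and 136.6 CPM in SM6 young and 99.8, 103.2 and 90.3 CPM in SM6 old. They were 130.1, 140.8 and 96.0 CPM in Lgr5-GFP young and 115.3, 143.9 and 164.9 CPM in Lgr5-GFP old. The old libraries were all lower in SM6, and the ages overlapped in Lgr5-GFP. The log2 change was -0.50 in SM6 (95% interval -0.88 to -0.11, edgeR adjusted p = 0.209) and 0.21 in Lgr5-GFP (95% interval -0.17 to 0.59, edgeR adjusted p = 0.781). The Lgr5-GFP value was 0.06 without young replicate 3, 0.09 without old replicate 3 and 0.34 without old replicate 1. The difference between these age effects, 0.71, had an unadjusted p of 0.0124 in the edgeR quasi-likelihood test and an adjusted p of 0.352.

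Prom1 (ENSMUSG00000029086, chromosome 5, 43993620 to 44102032) codes for the membrane glycoprotein also known as CD133, and its average change was the closest to 0 of the 10. Libraries ran from 154.1 to 241.4 CPM in SM6 young and from 164.2 to 231.7 in SM6 old, and from 214.4 to 224.6 and 222.8 to 239.9 CPM in Lgr5-GFP young and old. The average log2 change was 0.02 (95% interval -0.24 to 0.28, edgeR adjusted p = 0.978), an interval that leaves room for changes of that size in either direction. Lrig1 (ENSMUSG00000030029, chromosome 6, 94604529 to 94700158), an inhibitor of epidermal growth factor receptors, was counted only 8 to 40 times per library. Its levels ran from 12.2 to 18.8 CPM in SM6 young, 5.43 to 20.0 in SM6 old, 9.52 to 17.0 in Lgr5-GFP young and 10.6 to 23.6 in Lgr5-GFP old. The average log2 change was 0.06 with a wide interval, -0.54 to 0.65 (edgeR adjusted p = 0.976), which leaves room for changes of that size in either direction.

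Hopx (ENSMUSG00000059325, chromosome 5, 77086988 to 77115121) codes for a small homeodomain protein that does not bind DNA itself and is the classic marker of the reserve cells. Its values were 55.8, 52.1 and 56.4 CPM in SM6 young and 37.4, 40.7 and 60.7 CPM in SM6 old. In Lgr5-GFP they were 59.2, 51.0 and 62.5 CPM in young and 36.0, 41.5 and 67.5 CPM in old ISCs. In both isolations 2 old libraries lay below all young ones and replicate 3 lay above them. The average log2 change was -0.27 (95% interval -0.61 to 0.08, edgeR adjusted p = 0.549), and it was -0.17 without Lgr5-GFP old replicate 1 and -0.42 without Lgr5-GFP old replicate 3.

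Sox9 (ENSMUSG00000000567, chromosome 11, 112782224 to 112787760) codes for a transcription factor of the crypt base that is needed for Paneth cells to form. Replicates 1, 2 and 3 of SM6 young held 1440, 1694 and 1990 CPM, and those of SM6 old held 843, 719 and 988 CPM. In Lgr5-GFP young they held 1590, 1162 and 1296 CPM, and in Lgr5-GFP old 990, 1276 and 817 CPM. The ages were clearly separate in SM6 and overlapped in Lgr5-GFP, where replicate 2 of the old mice lay within the young range. The log2 change in SM6 was -1.01 (95% interval -1.40 to -0.61, edgeR adjusted p = 0.00358), which is 49.8% of the young level. In Lgr5-GFP it was -0.39 (edgeR adjusted p = 0.506), or -0.25 without old replicate 3 and -0.26 without young replicate 1. On average Sox9 changed by -0.70 (SE 0.13, edgeR adjusted p = 0.00324). The 4 groups stood in the order SM6 young, Lgr5-GFP young, Lgr5-GFP old and SM6 old, and all neighbours in that order overlapped.

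Msi1 (ENSMUSG00000054256, chromosome 5, 115429599 to 115455698) codes for Musashi-1, an RNA-binding protein that represses the translation of Numb, an inhibitor of Notch, and it had the largest age effect of the 10 markers in each isolation and on average. Replicates 1, 2 and 3 of SM6 young held 96.5, 152.4 and 138.0 CPM, and those of SM6 old held 25.7, 33.3 and 41.5 CPM. In Lgr5-GFP young they held 116.6, 97.4 and 103.1 CPM, and in Lgr5-GFP old 36.7, 87.0 and 29.9 CPM. No old library reached a young one in either isolation, although Lgr5-GFP old replicate 2 came near and stood well above its own group. The mean fell from 129 ± 29.1 to 33.5 ± 7.91 CPM in SM6 (SD, n = 3 each), and the means in Lgr5-GFP were 105.7 ± 9.86 and 51.2 ± 31.2 CPM. On the log2 scale Msi1 changed by -1.94 in SM6 (95% interval -2.54 to -1.35, edgeR adjusted p = 0.000484), which is 26.0% of the young level. It ranked 16 of all genes by p in that comparison. The average over both isolations was -1.50 (SE 0.20, edgeR adjusted p = 9.53e-05), rank 14.

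In Lgr5-GFP, Msi1 had a log2 change of -1.05 (95% interval -1.62 to -0.48) that did not pass the threshold (edgeR adjusted p = 0.0927). Without Lgr5-GFP old replicate 2 the value was -1.66 and passed (edgeR adjusted p = 0.00142). Without old replicate 1 it was -0.84 and without old replicate 3 it was -0.80, and neither passed (edgeR adjusted p = 0.344 and 0.395). With all libraries kept, it passed with no filter on low counts, with DESeq2, with limma-voom and with the likelihood ratio test of edgeR. It did not pass with a stricter filter, unscaled totals or the defensin share as a covariate (edgeR adjusted p = 0.107, 0.189 and 0.317).

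Cdca7 (ENSMUSG00000055612, chromosome 2, 72476159 to 72486893) codes for a nuclear protein induced by Myc and E2F that works with the chromatin remodeller HELLS. It ran from 223.3 to 322.3 CPM in SM6 young, 208.5 to 255.2 in SM6 old, 262.0 to 303.4 in Lgr5-GFP young and 241.5 to 299.9 in Lgr5-GFP old. The average log2 change was -0.16 (95% interval -0.41 to 0.09, edgeR adjusted p = 0.644). Cdk6 (ENSMUSG00000040274, chromosome 5, 3341485 to 3531008), a kinase that pairs with D-type cyclins and phosphorylates the retinoblastoma protein, behaved otherwise. Replicates 1, 2 and 3 of SM6 young held 1006, 1269 and 1069 CPM, and those of SM6 old held 487, 451 and 674 CPM. In Lgr5-GFP young they held 953, 766 and 846 CPM, and in Lgr5-GFP old 647, 786 and 411 CPM. As for Sox9, the ages were separate in SM6 only, and Lgr5-GFP old replicate 2 lay within the young range. The log2 change was -1.05 in SM6 (95% interval -1.48 to -0.63, edgeR adjusted p = 0.00445), which is 48.2% of the young level. It was -0.48 in Lgr5-GFP (edgeR adjusted p = 0.435), or -0.26 without old replicate 3, and -0.76 on average (SE 0.14, edgeR adjusted p = 0.00306).

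Set against all tested genes, the 4 calls in SM6 compare with 1.77% of genes called lower in old ISCs there, and the 4 on average with 2.06%. The 4 on average are the same genes and share the SM6 libraries. The markers were chosen with earlier results of these data known, so the shares in this paragraph give a scale and no test. In Lgr5-GFP 0 of the 10 markers and 0.284% of all genes were called lower. At an unadjusted p under 0.05 in Lgr5-GFP, 4 markers passed (Olfm4, Sox9, Msi1 and Cdk6), beside 9.79% of all genes. Old libraries lay wholly below young ones for 6 markers in SM6 (Olfm4, Smoc2, Rgmb, Sox9, Msi1 and Cdk6), beside 9.78% of all genes. They did so for 2 in Lgr5-GFP (Olfm4 and Msi1), beside 7.95%, and the same 2 did so in both isolations, beside 1.29% of all genes. The median log2 change of the 10 markers was -0.45 in SM6, with 10 of 10 values negative, where the median of all genes was -0.007. In Lgr5-GFP the median was -0.16 with 7 of 10 negative (all genes -0.034), and on average it was -0.21 with 8 of 10 negative (all genes -0.026). With library totals left unscaled, the Lgr5-GFP values were -0.14 for Olfm4, -0.19 for Sox9, -0.28 for Cdk6 and 0.42 for Rgmb, where the median of all genes was 0.16.

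**Figure D2:**
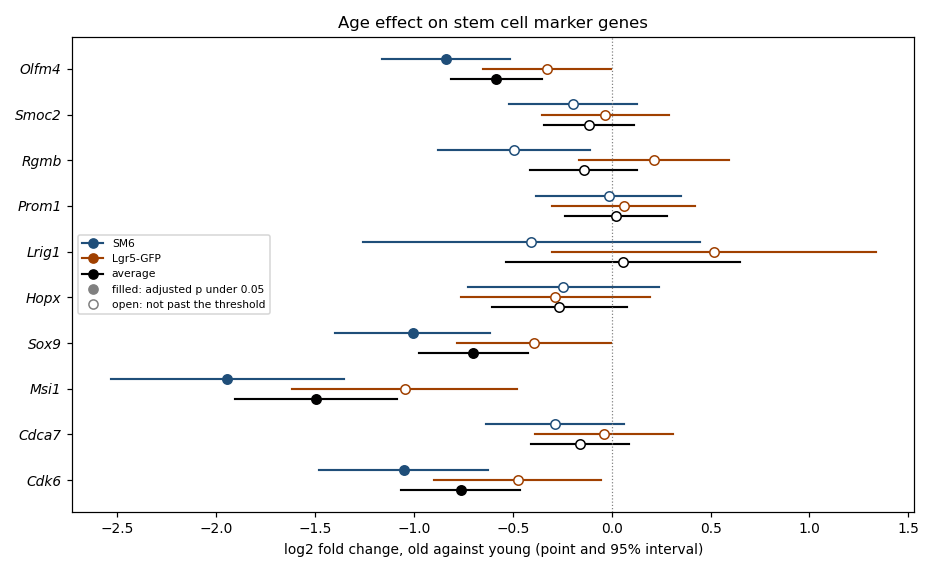
Log2 change from young to old for each marker, with its 95% interval, for SM6 (blue), Lgr5-GFP (orange) and their average (black). Filled points passed an adjusted p of 0.05, which holds for Olfm4, Sox9, Msi1 and Cdk6 in SM6 and on average and for 0 markers in Lgr5-GFP.

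Seen library by library, each old mouse of SM6 was below the young mean for the 4 called markers. Their Msi1 levels were 19.9%, 25.8% and 32.2% of the young mean, and their Olfm4 levels 50.3%, 56.3% and 61.1%. Sox9 stood at 49.3%, 42.1% and 57.9% and Cdk6 at 43.7%, 40.4% and 60.5%, so replicate 3 was the highest for all 4 genes. In the old Lgr5-GFP mice Msi1, Sox9 and Cdk6 spread over a wider range. Their Msi1 levels were 34.7%, 82.3% and 28.3% of the young mean, with Sox9 at 73.4%, 94.6% and 60.5% and Cdk6 at 75.7%, 91.9% and 48.1%. Replicate 2 was the highest and replicate 3 the lowest for these 3 genes, while Olfm4 stood at 75.8%, 74.4% and 89.0% with replicate 3 the highest. Replicate 2 also stood apart in Fabp1, a fatty acid binding protein of enterocytes, with 9851 CPM beside 1334 and 780.2 CPM in replicates 1 and 3, and had 1251 CPM of Fabp2 beside 677.8 and 596 CPM. The other 8 genes of the enterocyte list summed to 718.8 CPM in replicate 2 and to 767.1 and 598.9 CPM in replicates 1 and 3, and the part of Fabp1 and Fabp2 in the marker levels was not tested.

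**Figure D3:**
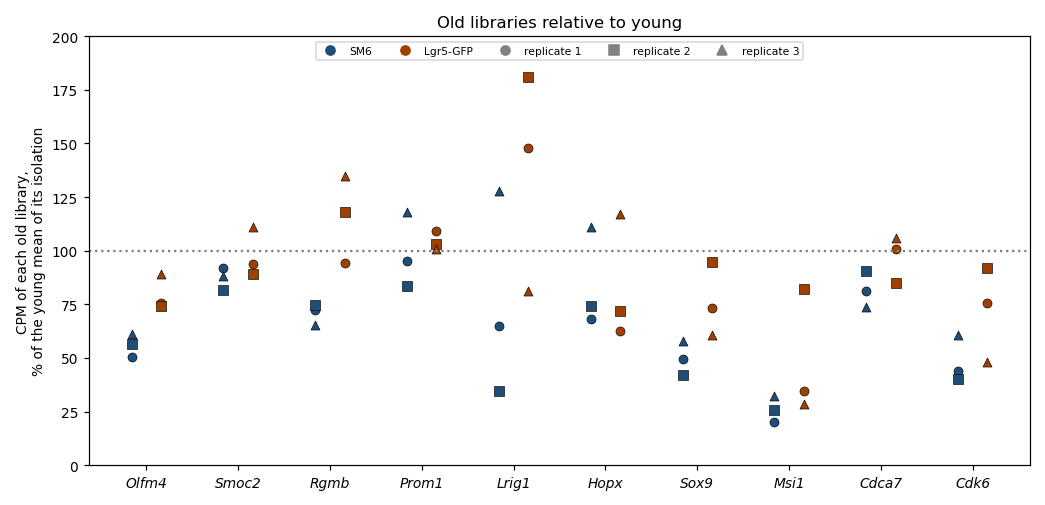
Level of each old library as a percent of the mean of the 3 young libraries of the same isolation, with SM6 in blue, Lgr5-GFP in orange and a marker shape for each replicate (the numbers do not pair mice). Msi1 lies between 19.9% and 32.2% in SM6 and between 28.3% and 82.3% in Lgr5-GFP, and the dotted line marks 100%.

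To ask whether the age effects differed between the isolations, the difference of the age effects was tested (Lgr5-GFP minus SM6). Of the 10 markers 0 passed in the edgeR quasi-likelihood test, beside 0.658% of all genes, and 0 passed with DESeq2 or limma-voom, so a larger decline in SM6 was not established for any of them. The difference was 0.51 for Olfm4 (95% interval 0.06 to 0.97, edgeR adjusted p = 0.465), 0.61 for Sox9 (0.06 to 1.17, adjusted p = 0.472) and 0.90 for Msi1 (0.08 to 1.72, adjusted p = 0.478). For Cdk6 it was 0.58 (95% interval -0.02 to 1.17, edgeR adjusted p = 0.541). At an unadjusted p under 0.05, 4 markers passed (Olfm4, Sox9, Msi1 and Rgmb), beside 9.43% of all genes. The difference was positive for 9 of the 10, Hopx being the exception at -0.04. For 0 of the 10 did the ages separate in both isolations and in opposite order, beside 0.965% of all genes.

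**Figure D4:**
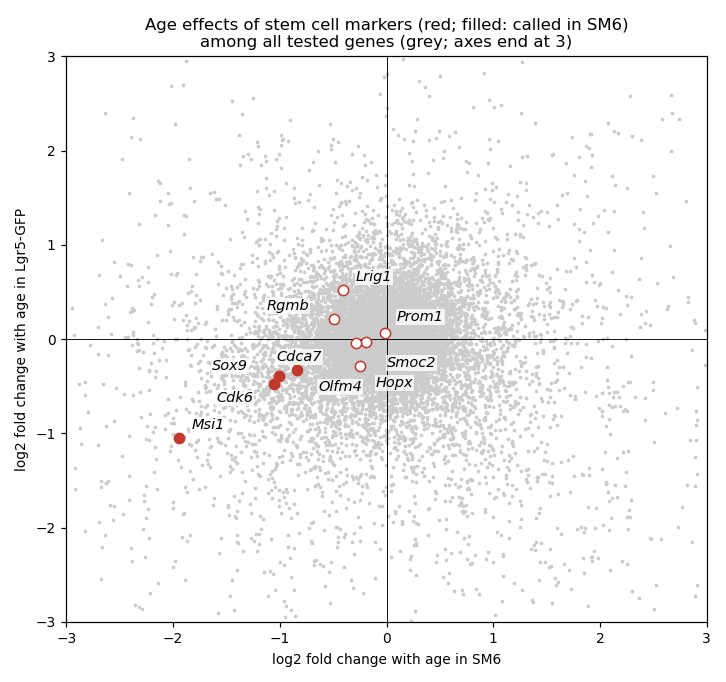
Log2 change with age in SM6 (horizontal) and in Lgr5-GFP (vertical) for all tested genes (grey) and the 10 markers (red, filled where called in SM6). The 4 filled points lie in the lower left, Msi1 farthest out at -1.94 and -1.05, and 373 genes with a change over 3 in size fall outside the axes.

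The isolations themselves were compared at each age. At 2 months 0 of the 10 markers were called (all genes 0.0898%) and 0 had an unadjusted p under 0.05 (all genes 7.47%), in the edgeR quasi-likelihood test. The value furthest from 0 was that of Cdk6, at -0.38 on the log2 scale (95% interval -0.80 to 0.04, edgeR adjusted p = 0.706). At 22 months 0 were called (all genes 0.718%) and 3 had an unadjusted p under 0.05 (Olfm4, Smoc2 and Rgmb, beside 9.4% of all genes). Values were 0.41 for Olfm4 (edgeR adjusted p = 0.373), 0.35 for Smoc2 (adjusted p = 0.492) and 0.53 for Rgmb (adjusted p = 0.322). All 10 markers had a higher fitted level in Lgr5-GFP old than in SM6 old, with a median difference of 0.31 where the median of all genes was 0. These comparisons use the same libraries as the age effects and are not independent of them.

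By the pattern over the 12 libraries, Sox9 and Cdk6 were close to each other. Likeness was measured as the root mean square distance between log2(CPM + 1) values, each centred on the gene's own mean, over 4760 genes with a mean of at least 5 on that scale. The distance between Sox9 and Cdk6 was 0.154, which ranked Cdk6 at 10 from Sox9 and Sox9 at 5 from Cdk6. The nearest genes to Sox9 were Ocln (0.116), Spata13 (0.126) and Crebbp (0.132), and the nearest to Cdk6 were Tmf1 (0.109), Twf1 (0.132) and Marf1 (0.148). Median distances over all genes were 0.502 and 0.551. Nearest to Olfm4 stood Scaf4 (0.151), Jaml (0.152) and Arf5 (0.165), and to Msi1 Snd1 (0.212), Myh9 (0.217) and Ccdc85c (0.223), beside medians of 0.428 and 0.92. The distances of Msi1 from the other called markers were larger, at 0.46 for Cdk6, 0.501 for Sox9 and 0.628 for Olfm4. Measured from Msi1 these genes ranked 70, 94 and 216, and measured from them Msi1 ranked 900, 2365 and 4536. All distances were taken over the same 12 libraries, young and old together, and are descriptions.

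Of 22 other markers of crypt base stem cells, 3 fell both on average and in SM6, while 0 were called in Lgr5-GFP (edgeR), beside shares of all genes called lower of 2.06% (average), 1.77% (SM6) and 0.284% (Lgr5-GFP). At an unadjusted p under 0.05 in Lgr5-GFP, 2 of them were lower (Scn2b and Slc14a1) and 2 higher (Fstl1 and Slc12a2), beside 9.79% of all genes in either direction. In SM6 7 of the 22 passed that level, all lower (Ephb3, Gkn3, Lgr5, Scn2b, Slc12a2, Soat1 and Znrf3), beside 13.1% of all genes. On average 7 passed it, all lower, beside 12.8%. For the difference of the age effects 8 passed it, all positive, beside 9.43%. Scn2b, a sodium channel subunit, had an average log2 change of -1.04 (edgeR adjusted p = 0.000327), Soat1, which esterifies cholesterol, -0.63 (adjusted p = 0.00584), and Znrf3, a ubiquitin ligase that removes Wnt receptors, -0.64 (adjusted p = 0.0227). When each of the 12 libraries was dropped in turn, the average Znrf3 call was lost 7 times, with edgeR adjusted p up to 0.0887, and the SM6 call 4 times, with adjusted p up to 0.104. Lgr5, the receptor that gives the reporter its name, changed by -0.27 on average (95% interval -0.51 to -0.03, edgeR adjusted p = 0.305). Its libraries ran from 311.5 to 355.6 CPM in SM6 young and from 235.5 to 286.8 in SM6 old. In Lgr5-GFP they ran from 216.9 to 305.3 CPM in young and from 216.6 to 246.4 in old ISCs. The 22 genes had a median of -0.35 in SM6 and of 0.001 in Lgr5-GFP, with -0.13 for the average. At 22 months Slc12a2, an ion transporter of crypt base cells, was called higher in Lgr5-GFP than in SM6 (0.78, edgeR adjusted p = 0.013), a call lost without SM6 old replicate 2 or Lgr5-GFP old replicate 3 (adjusted p = 0.0573 and 0.12).

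Among 7 further reserve or injury-response markers, Bmi1, Tert, Clu, Krt19 and Dclk1 passed the filter and 0 were called in any comparison (edgeR, with 1 at an unadjusted p under 0.05 on average, Clu, a level that 12.8% of all genes passed on average). Their median average change was 0.26 (all genes -0.026). Of these genes Dclk1, Clu and Tert had only 0 to 45, 0 to 31 and 1 to 16 counts in a library. Of 12 relatives of the markers in the same gene families, 8 were tested and 0 were called on average (edgeR, with 2 at an unadjusted p under 0.05, beside 12.8% of all genes, and a median of -0.03). Msi2, the paralog of Msi1, had a log2 change of -0.64 in SM6 (edgeR adjusted p = 0.09) and 0.11 in Lgr5-GFP (adjusted p = 0.917). Cdk4, which shares the D-type cyclins with Cdk6, had -0.05 in SM6 and -0.02 in Lgr5-GFP (edgeR adjusted p = 0.946 and 0.988). Sox4 was called lower in SM6 (-0.82, edgeR adjusted p = 0.036), and the call was lost when any SM6 library other than old replicate 3 was left out, with adjusted p up to 0.217.

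Genes whose products bind or are targeted by the markers gave 0 calls of 18 on average in edgeR, with 5 at an unadjusted p under 0.05 (all genes 12.8%). They include the D-type cyclins, with average log2 changes of 0.11 for Ccnd1 and 0.09 for Ccnd2 (edgeR adjusted p = 0.809 and 0.845), and 0.57 for Ccnd3 (adjusted p = 0.64), which had 3 to 14 counts in a library. Rb1, the retinoblastoma gene, had the largest value of the list at 1.61 (95% interval 0.50 to 2.72, edgeR adjusted p = 0.139), from 0 to 23 counts in a library. Numb, the target of Musashi-1, had 0.26 (edgeR adjusted p = 0.735), and Hells, the partner of Cdca7, had -0.03 (adjusted p = 0.974). Egfr, on which Lrig1 acts, had -0.62 (edgeR adjusted p = 0.105). Of 12 genes expressed in cycling cells 0 were called (edgeR, with 2 at an unadjusted p under 0.05 on average, Mki67 and Ccnb1, where all genes gave 12.8%), and their summed level lay between 1704 and 2580 CPM over all 12 libraries, with groups that overlapped.

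Markers of other crypt and villus cells moved with age as well, and in SM6 some rose where the 4 called markers fell. All 9 goblet cell genes were detected, and their summed level was 5730 to 9172 CPM in SM6 young and 17400 to 18310 in SM6 old, with 6 of the 9 called higher, beside 0.643% of all genes called higher in SM6 old. In Lgr5-GFP it was 5334 to 13800 CPM in young and 3179 to 5528 in old ISCs, with 0 of 9 called. The 10 enterocyte genes summed to 1837 to 1993 CPM in SM6 young and 2540 to 9293 in SM6 old, with 5 called higher, and to 1709 to 3013 and 1975 to 11820 CPM in Lgr5-GFP young and old, with 3 called lower. The highest sum in Lgr5-GFP old was mostly Fabp1, whereas at an unadjusted p under 0.05 in edgeR 7 enterocyte genes were lower there and 1, Fabp1, was higher (all genes 9.79% in either direction). Without Fabp1 and Fabp2, which were set aside after their values were seen, the other 8 genes summed to 867.4 to 993.7 CPM in SM6 young and 862.8 to 2109 in SM6 old, and to 894.2 to 1258 and 598.9 to 767.1 CPM in Lgr5-GFP young and old. The 10 Paneth cell genes summed to 12910 to 88450 and 54150 to 331600 CPM in SM6 young and old, with 1 called higher, and to 57400 to 321100 and 22870 to 39030 CPM in Lgr5-GFP, with 3 called lower. The SM6 old maximum was replicate 3, and replicates 1 and 2 (55020 and 54150 CPM) lay within the SM6 young range. The Lgr5-GFP young maximum was replicate 1, beside 137800 and 57400 CPM in replicates 2 and 3. At an unadjusted p under 0.05 in edgeR all 10 Paneth genes were higher in SM6 old, beside 13.1% of all genes in either direction. All 10 were lower in Lgr5-GFP old, beside 9.79%. The difference of the age effects was called for all 10 in edgeR, beside 0.658% of all genes. These 10 genes mark 1 cell type and are not independent results. The 9 enteroendocrine genes summed to 986 to 1552 and 1301 to 4196 CPM in SM6, with 1 called higher, and to 273.2 to 1369 and 156.6 to 301.7 CPM in Lgr5-GFP, with 0 called.

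The part of these cell types in the fall of Msi1, Sox9, Cdk6 and Olfm4 was not tested, and in SM6 the goblet and enterocyte sums and age cannot be told apart, since young and old libraries did not overlap in either list, although they overlapped for the 8 enterocyte genes other than Fabp1 and Fabp2. The difference of the age effects was called for 21 of the 49 tested genes of the cell type lists, beside 0.658% of all genes. Of these 21, 10 were the Paneth genes, which moved together. Tuft cell genes summed to at most 81.6 CPM in any library, immune genes to at most 32.8 CPM with Cd79a at 0 throughout, and stromal and endothelial genes to at most 8.14 CPM with Col3a1, Dcn and Pdgfra at 0 throughout. Without the library of highest defensin share in each isolation, the same 4 markers were called in SM6 and on average and 0 in Lgr5-GFP.

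**Figure D5:**
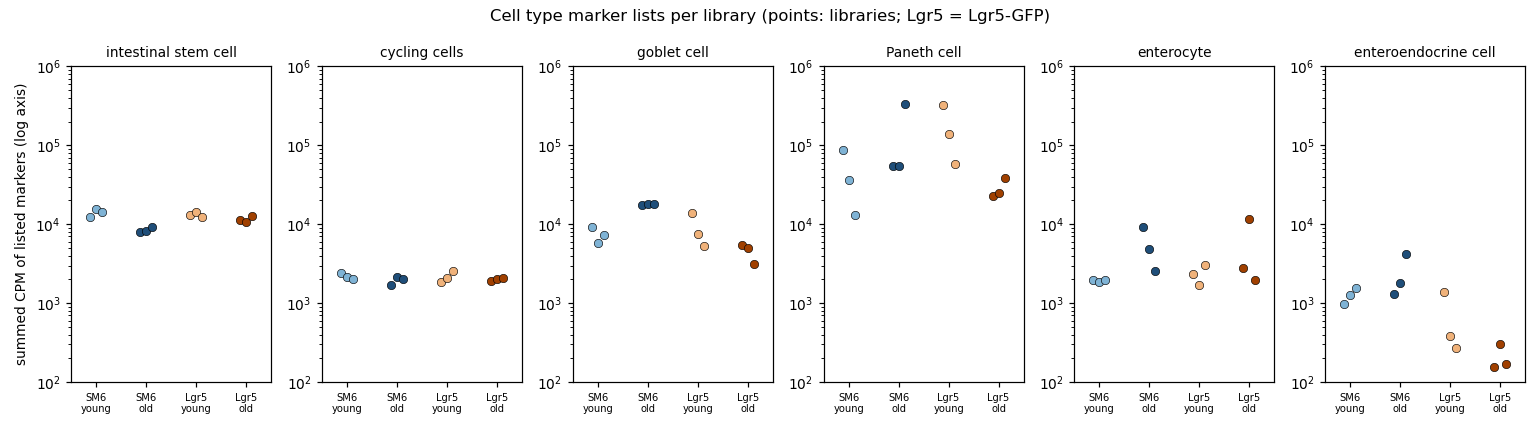
Summed CPM of the genes of 6 marker lists in each library, on log axes from 100 to 1000000, with points for libraries in the colours of the 4 groups. Goblet genes reach 17400 to 18310 CPM in SM6 old and 5730 to 9172 CPM in SM6 young, while cycling genes stay between 1704 and 2580 CPM.

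Gene length differed between the called markers. The exons of Cdk6 cover 13989 bases, longer than 97.0% of the tested genes with an annotation, those of Msi1 5800 bases (percentile 69.9), Sox9 4135 (52.1) and Olfm4 2962 (35.7), with a median of 3973 bases over the tested genes. The share of genes called lower on average rose with length, from 0.84% among the shortest 3341 genes to 1.74%, 2.52% and 3.14% in the next groups of like size. The isolations differed here: genes called lower in SM6 had a median of 5402 bases, and the 38 called lower in Lgr5-GFP had 1805. The part of length in the changes of the markers was not tested. Whether counting used the strand is not stated, but genes that overlap the exons of a marker had at most 13 counts in a library (Slc25a26 opposite Lrig1), and the others at most 7. Sox9, Msi1, Smoc2, Cdca7 and Rgmb had no overlapping gene.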

How the data were processed

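Poly(A) RNA of sorted ISCs had been sequenced from the 3′ end. The authors aligned reads to GRCm38 with STAR 2.4.2a and counted them with featureCounts over the exons of GENCODE vM15. The deposited values are these raw counts per gene. Molecular identifiers were added, but their collapse is not stated, and precision is limited by totals of 970472 to 3815425 counts. Groups follow the sample titles.

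The study's filter (more than 5 reads and 1 CPM in some library) left 13368 of 54232 genes. All 12 libraries entered a single edgeR 4.0.16 quasi-likelihood fit in R 4.3.3 with a mean for each group (two-sided, Benjamini-Hochberg adjustment over all genes tested), and checked on simulated data. limma 3.58.1 and DESeq2 1.42.0 served as alternatives, beside other scalings, filters, a replicate block, a defensin covariate and leaving out libraries. Intervals come from the fit. Python 3.11.15 with matplotlib 3.10.9 was used for plotting. Positions are from GENCODE vM21 on GRCm38.

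The markers and lists were chosen with earlier results of these data known. All 10 markers are named. From each companion list, up to 4 called genes per direction were to be named for the average age effect, and other genes were named after their values were seen. The labels share replicate numbers, but these did not pair the libraries (correlations of deviations from -0.072 to 0.046 over 18 pairs).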

Additional observations from a re-analysis of the deposited data

Results flagged for a closer look

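Among the companion genes, which are the other stem cell markers, relatives, partners and cycling genes, Slc12a2 and Erbb3 had values of opposite sign in the isolations. Old and young libraries did not overlap in either isolation and lay in opposite order: every SM6 old library lay below the young ones and every Lgr5-GFP old library lay above them. The log2 change of Slc12a2, an ion transporter of crypt base cells, was -0.41 in SM6 and 0.39 in Lgr5-GFP. The difference of 0.80 (95% interval 0.34 to 1.26) did not pass (edgeR adjusted p = 0.132). That of Erbb3, a receptor of the epidermal growth factor receptor family, was -0.52 in SM6 and 0.60 in Lgr5-GFP, and its difference of 1.12 (95% interval 0.52 to 1.72) did not pass either (edgeR adjusted p = 0.0938). Of the 10 markers 0 showed such an opposite order, beside 0.965% of all genes. Of the 49 tested genes of the cell type lists, 5 showed it the other way round, higher in SM6 old and lower in Lgr5-GFP old (Agr2 and Spink4 of goblet cells, Ang4 of Paneth cells, Sis and Krt20 of enterocytes), and for all 5 the difference of the age effects passed (edgeR adjusted p from 0.00554 to 0.0115). In SM6 the ages nearly touched for Ang4, with young libraries up to 506.7 CPM and old ones from 510.5 CPM. For Sis these values were 34.69 and 35.95 CPM.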

How the results depend on the processing

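The calls of Msi1, Sox9 and Cdk6 held in SM6 and on average under every alternative run, and that of Olfm4 in SM6 did too. Leaving out SM6 old replicate 1 brought Cdk6 in SM6 closest to the threshold (adjusted p = 0.04999). In Lgr5-GFP the count of called markers, 0, became 1 (Msi1) with no filter, with DESeq2, with limma-voom and with the edgeR likelihood ratio test, and ran from 0 to 1 when 1 library was left out. Counts for the difference of the age effects and both isolation comparisons stayed at 0. With the replicate block, 4 markers were called in SM6, 4 on average and 0 in Lgr5-GFP, and the paired fit changed no call. Signs turned only for values near 0 that never passed: Prom1 in SM6 to 5e-04 with DESeq2, Smoc2 in Lgr5-GFP to 0.15 with unscaled totals and 0.0745 with the defensin covariate, Cdca7 in Lgr5-GFP to 0.16 with unscaled totals, Lrig1 on average to -0.11 with limma-voom, and Lrig1 and Prom1 on average to -0.23 and -0.0356 without the top defensin libraries. Leaving out 1 library gave -0.17 to 0.15 for Prom1 in SM6, -0.13 to 0.0323 for Smoc2 and -0.0997 to 0.0524 for Cdca7 in Lgr5-GFP, and on average -0.0531 to 0.11 for Prom1 and -0.24 to 0.24 for Lrig1. Unscaled totals moved the median of all genes to -0.16 in SM6 and 0.16 in Lgr5-GFP. The cause of these changes was not tested. Fits on only the groups compared gave no average and no difference of age effects.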
